A study of Homo sapiens with 18 samples.

Results

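The pigment cell lineage is described here through 10 genes measured in uveal melanoma cells treated with inhibitors of EHMT2 (G9a), the methyltransferase that writes H3K9me2. The genes were chosen by name, for their known roles, from the 26475 gene symbols of the count table. They comprise the lineage transcription factors MITF and SOX10, the melanin enzymes TYR, TYRP1 and DCT, the melanosome proteins PMEL and MLANA, the melanosomal transporters OCA2 and SLC45A2, and the melanosomal receptor GPR143. All 10 passed the filter on low counts in each fit.

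Mel92.1 and MP41 are 2 human cell lines of uveal melanoma. Each had 3 libraries of DMSO-treated cells (the vehicle), 3 of cells treated with UNC0642 and 3 of cells treated with A366. The labels give both inhibitors at 1 µM for 48 h, and both compounds inhibit EHMT2 and the related enzyme EHMT1. Each line is a single established line without other cells of the eye, and the labels do not say whether replicates were separate cultures, while the methods of the study describe biological replicates for its experiments in general, so p-values measure the spread between these libraries.

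Uveal melanoma arises from melanocytes of the eye, and such cells usually keep the lineage program of their origin. MITF is the transcription factor that directs this program, acting with SOX10, and it binds an extended E-box called the M-box in the promoters of melanin genes. TYR starts melanin synthesis from tyrosine, DCT and TYRP1 act on later steps of eumelanin synthesis, and PMEL forms the fibrils on which melanin is laid down. MLANA is needed for PMEL processing, OCA2 and SLC45A2 set the melanosomal pH and transport, and GPR143 limits melanosome size.

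Deposited counts summed to between 23601156 and 62941462 per library (median 41955693), and the 4 ribosomal RNA genes in the table took 3.31% to 32.8% of them. The highest share and the lowest total were both in Mel92.1 UNC0642 replicate 1. For 4 libraries the label and the expression went apart. A366 replicates 2 and 3 labelled Mel92.1 carried the genes of MP41, and those labelled MP41 carried the genes of Mel92.1. Their levels were 96.5% to 112% of the DMSO level over 27 genes of Mel92.1 or 33 genes of MP41, chosen on the DMSO libraries and without the 10 pigment genes, and at most 0.0677% for the genes of the labelled line. These 4 libraries are placed here with the line whose genes they carry, as in the supplementary gene table of the study. Results that rest on them are also given as labelled and without them. Levels are given as CPM, the counts per 1000000 of the library total after TMM scaling over the 18 libraries.

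Some markers of other cell types were nearly silent and others were not. CD3E of the immune list, CDH5 of the endothelial list, KRT5 of the epithelial list and RPE65 of the retinal pigment epithelium list had at most 3 counts in every library. The 5 immune markers summed to 26.1 to 36.1 CPM in Mel92.1 and 133 to 183 CPM in MP41, of which the lysosomal gene CD68 was 25.9 to 35.8 and 131 to 182 CPM. The 6 fibroblast markers summed to 23.1 to 53.7 CPM and the 4 retinal pigment epithelium markers to 14.4 to 36.2 CPM, with BEST1 at 10.7 to 29.8 CPM. The 3 endothelial markers summed to at most 3.14 CPM. The 4 epithelial markers summed to 6.96 to 10.8 CPM in Mel92.1, with KRT18 at 6.63 to 9.54 CPM, and to at most 1.79 CPM in MP41.

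Of the 7 pigment genes with a window in the RefSeq table used here, 4 carry the core of the M-box, TCATGTG, close to a start site. The stretches of 250 bases upstream of the RefSeq start sites (GRCh38.p14) are shown because the M-box is the known site of MITF in such promoters, and capitals mark TCATGTG or its reverse complement CACATGA.
TYR, chr11:89177625-89177874, plus strand: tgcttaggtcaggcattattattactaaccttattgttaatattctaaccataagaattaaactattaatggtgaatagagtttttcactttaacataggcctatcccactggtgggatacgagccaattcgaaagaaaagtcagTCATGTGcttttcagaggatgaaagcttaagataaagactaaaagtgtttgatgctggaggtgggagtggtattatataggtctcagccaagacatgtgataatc
TYRP1, chr9:12693135-12693384, plus strand: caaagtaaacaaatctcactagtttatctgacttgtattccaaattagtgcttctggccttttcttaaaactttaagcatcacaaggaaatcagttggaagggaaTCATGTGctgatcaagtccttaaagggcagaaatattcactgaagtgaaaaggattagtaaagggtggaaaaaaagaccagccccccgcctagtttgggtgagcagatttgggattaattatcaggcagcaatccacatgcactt
DCT, chr13:94479683-94479932, minus strand: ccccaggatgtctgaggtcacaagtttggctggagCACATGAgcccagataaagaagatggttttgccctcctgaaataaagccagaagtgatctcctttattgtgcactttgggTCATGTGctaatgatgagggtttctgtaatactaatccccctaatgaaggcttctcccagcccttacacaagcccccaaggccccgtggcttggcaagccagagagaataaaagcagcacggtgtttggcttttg
GPR143, chrX:9765848-9766097, minus strand: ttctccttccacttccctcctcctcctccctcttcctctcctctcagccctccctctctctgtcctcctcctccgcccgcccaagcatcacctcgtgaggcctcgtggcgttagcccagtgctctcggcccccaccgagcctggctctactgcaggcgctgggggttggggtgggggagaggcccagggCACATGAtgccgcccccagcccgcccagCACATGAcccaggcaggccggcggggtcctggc
The match lies 105 bases upstream of the start in TYR and 145 bases upstream in TYRP1. DCT has matches at 215 and 135 bases upstream, and GPR143 at 61 and 33 bases upstream. Among the 10 windows of 300 bases that the table holds for 7 of the genes (MITF, MLANA, TYRP1, TYR, DCT, OCA2 and GPR143), 4 held the core, against 2.92% of all 35116 windows. No window of these genes held the E-box CACGTG, which 7.26% of all windows held. The search covered both strands, the motifs do not overlap, and a match is a description of letters, not of binding. The M-box is known from promoters of melanin genes, so these shares are no test of enrichment.

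Both lines expressed the program strongly, with TYRP1 and PMEL highest in both, but most of the 10 genes differed in level between them. PMEL and TYRP1 alone took 1.99% ± 0.105 (SD, n = 3) of all counts in the Mel92.1 DMSO libraries and 1.24% ± 0.00908 (SD, n = 3) in those of MP41, of 2.2% ± 0.111 and 1.74% ± 0.0254 for the 10 genes together. DCT was nearly silent in Mel92.1 and OCA2 nearly silent in MP41, while SOX10 differed by less than its error. With DMSO, 9 of the 10 genes differed between the lines by the quasi-likelihood test of edgeR, with p adjusted by Benjamini-Hochberg (4 higher and 5 lower in Mel92.1), where 69.4% of all 15799 genes tested differed.

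Per kilobase of the longest transcript, the order of levels in the Mel92.1 DMSO libraries was TYRP1, PMEL, SOX10, MLANA, GPR143, TYR, MITF, SLC45A2, OCA2 and DCT. TYRP1 reached 4089 ± 202 CPM per kb and DCT 0.382 ± 0.167 CPM per kb (SD, n = 3). In the MP41 DMSO libraries the order was TYRP1, PMEL, TYR, MLANA, SOX10, SLC45A2, MITF, GPR143, DCT and OCA2, from 2362 ± 28.1 for TYRP1 to 0.152 ± 0.0383 CPM per kb for OCA2. No neighbours in either order overlapped between their 3 libraries. TYR had rank 3 in MP41 and rank 6 in Mel92.1.

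**Figure D1:**
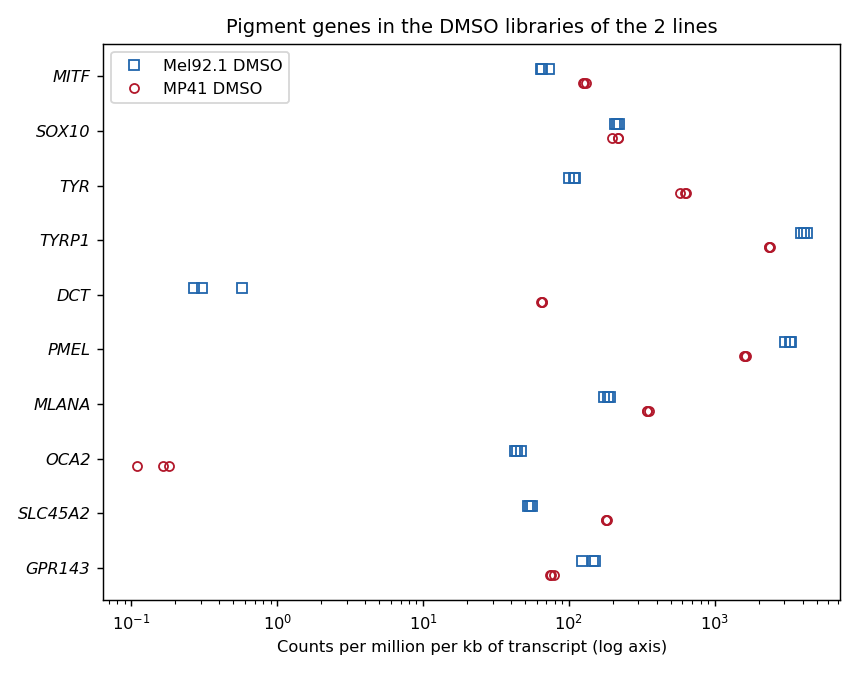
Level of each gene in the DMSO libraries, in CPM per kilobase of its longest transcript on a log axis. Each square is 1 Mel92.1 library and each circle 1 MP41 library (3 a line). TYRP1 and PMEL lie farthest right in both lines, DCT is far left in Mel92.1 and OCA2 far left in MP41.

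OCA2, whose product is an anion transporter of the melanosome, had 150, 136 and 142 CPM in the Mel92.1 DMSO libraries and 0.346, 0.581 and 0.522 CPM in those of MP41. The MP41 values rest on 16 to 25 counts a library. The difference was 8.20 ± 0.13 on the log2 scale (SE, adjusted p = 1.59e-17), the largest of the 10 genes.

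DCT showed the opposite pattern, with 2.91, 1.36 and 1.55 CPM in Mel92.1 and 330, 329 and 327 CPM in MP41. The groups did not overlap, and Mel92.1 was lower by a log2 difference of -7.37 ± 0.29 (SE, adjusted p = 3.94e-13). TYR was lower in Mel92.1 as well, at 249, 274 and 268 CPM against 1577, 1434 and 1543 CPM (-2.53 ± 0.07, adjusted p = 2.71e-15).

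MITF itself had 354, 316 and 309 CPM in Mel92.1 and 615, 604 and 630 CPM in MP41 (-0.92 ± 0.08, adjusted p = 1.97e-08). SLC45A2 (-1.74 ± 0.06) and MLANA (-0.91 ± 0.06) were also lower in Mel92.1, and PMEL (1.00 ± 0.06), GPR143 (0.87 ± 0.08) and TYRP1 (0.79 ± 0.05) were higher. Thus OCA2, TYRP1, GPR143 and PMEL stood higher in the line with less MITF, and TYR, DCT, MLANA and SLC45A2 stood lower there. All 9 calls held under the 29 other settings tried. SOX10 had 595, 614 and 630 CPM in Mel92.1 and 623, 566 and 626 CPM in MP41, and the groups overlapped. Its difference was 0.02, with an approximate 95% interval of -0.11 to 0.15 (adjusted p = 0.809). Its transcript is the richest in GC of the 10 (63.5%), and with a correction for transcript GC and length its difference became -0.68 (adjusted p = 1.44e-07).

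Other genes of the pathway are given beside the 69.4% of all genes that differed between the lines, and 58 of 68 passed. Of 17 other lineage regulators tested, 4 were higher in Mel92.1 and 10 lower. The largest gap was in KIT, the receptor of stem cell factor, at 147 to 156 CPM in MP41 and at most 0.0532 CPM in Mel92.1. IRF4, a partner of MITF at TYR, had 115 to 119 CPM in MP41 and 0.464 to 0.639 CPM in Mel92.1. Of 23 genes of melanosome biogenesis and transport, 8 were higher in Mel92.1 and 11 lower, led by HPS1 (2.37 ± 0.08) and MLPH (-1.82 ± 0.07). Of 17 other MITF targets, 5 were higher and 10 lower, led by PPARGC1A (-3.78 ± 0.16) and PRKCB (5.52 ± 0.25). Of 11 markers of dedifferentiated melanoma, 2 were higher in Mel92.1 and 8 lower, led by WNT5A (-2.24 ± 0.17) and ITGA3 (-0.93 ± 0.08).

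**Figure D2:**
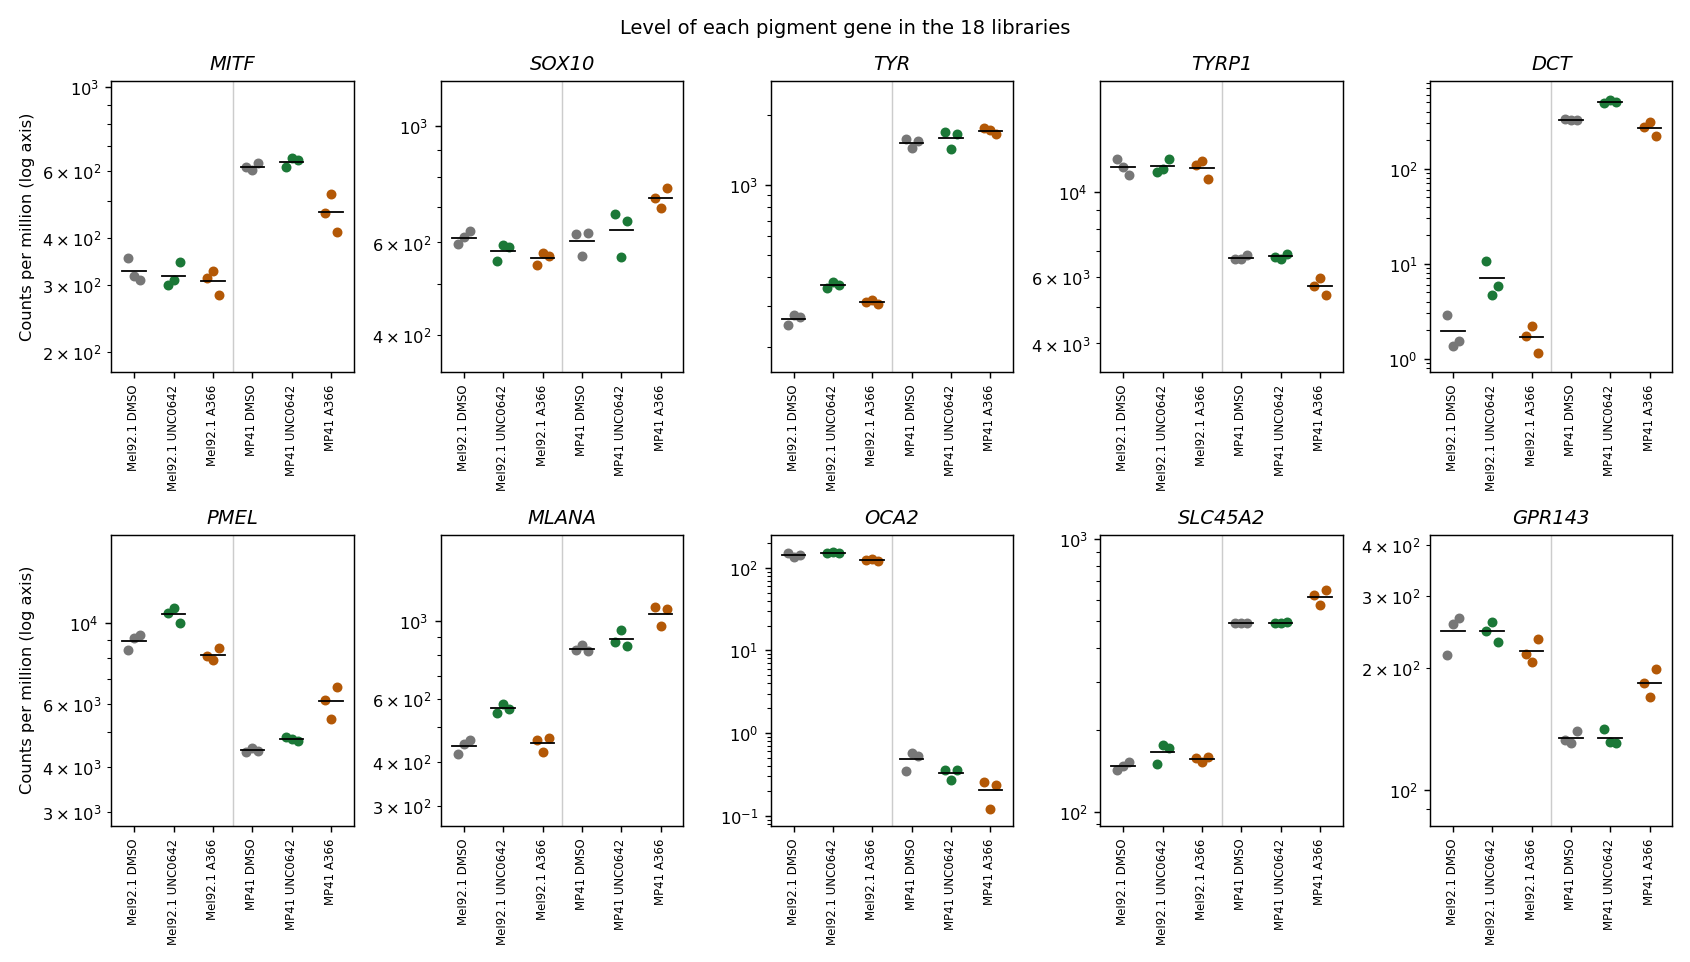
Level of each gene in the 18 libraries, in CPM on a log axis with its own range in each panel. Points are libraries placed with the line whose genes they carry, and bars are means of 3. On the Mel92.1 side TYR and MLANA rise with UNC0642, and PMEL and DCT are higher without passing the test. On the MP41 side DCT rises with UNC0642, and MITF and TYRP1 fall with A366.

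TYR and MLANA rose with UNC0642 in Mel92.1, and no change of MITF or SOX10 was detected. Only 0.688% of all 14528 genes tested passed in this comparison, and 80 of those 100 genes were higher. TYR had 358, 380 and 371 CPM with UNC0642 against 249, 274 and 268 CPM with DMSO. All UNC0642 libraries were above all DMSO libraries, and the change was 1.4-fold (log2 0.49 ± 0.06, SE, adjusted p = 0.00345). The call on TYR held in 18 of 20 other settings and failed with the libraries as labelled and with scaling by library size alone. The 6 libraries compared are the same under either labelling, and the log2 value as labelled was 0.48. With only these 6 libraries the call on TYR held.

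MLANA had 551, 582 and 564 CPM with UNC0642 and 422, 450 and 461 CPM with DMSO, again without overlap. The change was 1.27-fold (log2 0.34 ± 0.06, adjusted p = 0.0379). It was close to the threshold, since it stayed past it in 1 of the 9 fits that left out 1 library (without Mel92.1 UNC0642 replicate 1) and in 6 of 20 other settings in all, with adjusted p from 9.73e-06 to 1. Its log2 value lay between 0.31 and 0.37 whichever library was left out. Scaling by library size alone moved the 10 genes by a median of -0.21 in this comparison, which put TYR at 0.28, MLANA at 0.135 and PMEL at 0.03, none past the threshold.

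PMEL and DCT were higher with UNC0642 but did not pass with edgeR. DESeq2 and limma voom called both, with 2.64% and 2.84% of all genes. With the correction for GC and length PMEL passed (adjusted p = 0.00205) and DCT did not (0.0503). PMEL had 10720, 11000 and 10040 CPM with UNC0642 and 8421, 9089 and 9262 CPM with DMSO (log2 0.24 ± 0.06, adjusted p = 0.157). DCT had 10.6, 4.66 and 5.89 CPM against 2.91, 1.36 and 1.55 CPM, a fitted ratio of 3.58 (log2 1.84 ± 0.41, adjusted p = 0.116), on 175 to 314 and 51 to 142 counts. In both genes the groups did not overlap. The highest DCT value came from the library with the highest ribosomal share, and without that library the log2 value was 1.43.

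SLC45A2 was at 0.17 ± 0.07 (adjusted p = 0.494), and the log2 values of the other 5 genes lay between -0.09 and 0.09, each with an SE of at most 0.09. The median over the 10 genes was 0.13, and over all genes tested it was -0.02. In 6 of the 10 genes the UNC0642 and DMSO libraries did not overlap (TYR, DCT, PMEL, MLANA and OCA2 higher, SOX10 lower), as in 15.4% of all genes. No marker of another cell type passed the test here. The retinal pigment epithelium markers summed to 21.4 to 23.8 CPM with UNC0642 and 14.4 to 18.3 CPM with DMSO, and the fibroblast markers to 35.4 to 45.9 and 49 to 53.7 CPM. Neither pair overlaps, and their part in the result was not tested.

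In MP41, DCT was the gene that responded to UNC0642. It had 492, 524 and 501 CPM with UNC0642 and 330, 329 and 327 CPM with DMSO, a 1.53-fold change (log2 0.62 ± 0.10, adjusted p = 0.0291) with no overlap. It was the only one of the 10 genes to pass, where 0.241% of all 14956 genes tested passed. Its log2 value stayed between 0.59 and 0.64 in all 20 other settings, but the adjusted p passed in 11 of them. It was 0.071 to 0.163 when any DMSO or UNC0642 library or A366 replicate 1 was left out, and it did not pass with the libraries as labelled. The 6 libraries compared are the same under either labelling, and DCT passed with only these.

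TYR, which rose in Mel92.1, had 1686, 1424 and 1661 CPM with UNC0642 in MP41 and 1577, 1434 and 1543 CPM with DMSO, with overlapping groups (0.06 ± 0.07, adjusted p = 0.874). OCA2 was at -0.56 ± 0.45 (adjusted p = 0.811) on 13 to 16 counts. The other 7 genes lay between -0.0041 and 0.10 on the log2 scale. DCT and PMEL were the 2 genes without overlap between groups, as 18.8% of all genes were. The median over the 10 genes was 0.05, and over all genes tested it was 0.0011.

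**Figure D3:**
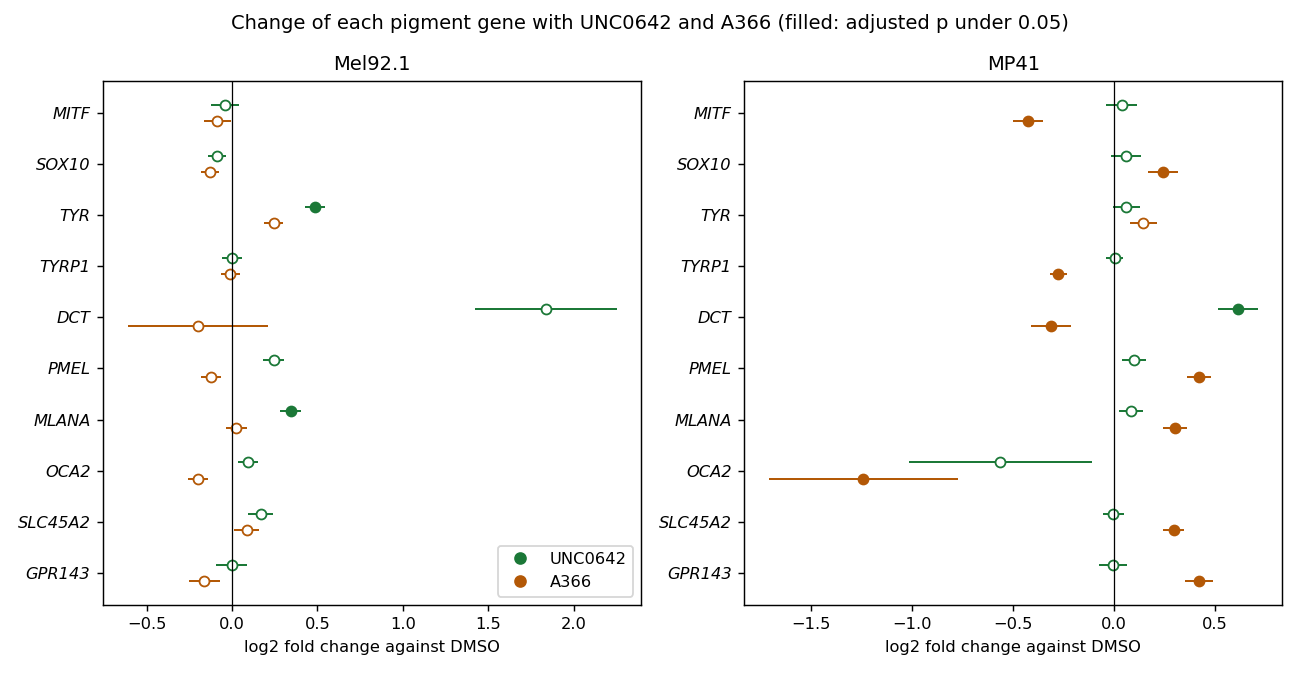
Log2 fold change of each gene against DMSO in Mel92.1 (left) and MP41 (right), for UNC0642 (green) and A366 (orange). Bars are standard errors of the fit and filled points have an adjusted p under 0.05. In Mel92.1 only TYR and MLANA with UNC0642 are filled. In MP41 DCT is filled with UNC0642 and every gene but TYR with A366.

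A366 in MP41 moved the pigment genes in both directions. MITF, TYRP1, DCT and OCA2 fell, and PMEL, GPR143, MLANA, SLC45A2 and SOX10 rose, so 9 of 10 passed. In this comparison 46.0% of all 14956 genes passed. The A366 and DMSO libraries did not overlap in any of the 10 genes, as in 58% of all genes.

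MITF had 465, 522 and 414 CPM with A366 and 615, 604 and 630 CPM with DMSO. Every A366 library was below every DMSO library, at 0.746 of the DMSO level (log2 -0.42 ± 0.08, adjusted p = 0.0012). TYRP1 had 5659, 5954 and 5379 CPM against 6693, 6680 and 6826 CPM (-0.27 ± 0.04, adjusted p = 0.000694). DCT had 273, 313 and 222 CPM against 330, 329 and 327 CPM (-0.31 ± 0.10, adjusted p = 0.0222), and its call was lost without any 1 of the 3 DMSO libraries or without A366 replicate 1 (adjusted p 0.0572 to 0.064).

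PMEL rose to 6151, 5433 and 6682 CPM from 4402, 4533 and 4439 CPM, a 1.34-fold change (log2 0.42 ± 0.06, adjusted p = 0.00045). GPR143 rose alike, to 183, 169 and 198 CPM from 133, 131 and 139 CPM (0.42 ± 0.07, adjusted p = 0.000813). MLANA (0.31 ± 0.06, adjusted p = 0.00179) and SLC45A2 (0.30 ± 0.05, adjusted p = 0.00125) rose by less.

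SOX10 was at 728, 698 and 760 CPM with A366 and at 623, 566 and 626 CPM with DMSO (0.24 ± 0.07, adjusted p = 0.0175), and its call was lost without DMSO replicate 2 (adjusted p = 0.0778) or A366 replicate 3 (adjusted p = 0.0568). TYR had 1750, 1728 and 1652 CPM against 1577, 1434 and 1543 CPM and did not pass (0.15 ± 0.07, adjusted p = 0.0857). OCA2 was at 0.26, 0.121 and 0.237 CPM, on 6 to 15 counts (-1.24 ± 0.47, adjusted p = 0.0467), and passed in 1 of the 9 fits that left out a library (without UNC0642 replicate 2).

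Changes in this comparison went with the make-up of the transcript across the whole table. Over 14447 genes the log2 change correlated with transcript length (Spearman's rho = -0.474) and with GC content (rho = 0.460), values that describe genes of the same libraries. In the other inhibitor comparisons against DMSO, rho lay between -0.232 and 0.117. For A366 against UNC0642 in MP41 it was -0.449 with length and 0.421 with GC content. Between the lines with DMSO it was -0.173 and 0.269. Of the 5 genes that rose, the transcripts of SOX10 (63.5% GC), GPR143 (56.4%), PMEL (53.7%) and SLC45A2 (48.3%) had more GC than those of MITF (41.4%), DCT (40.1%) and TYRP1 (40.3%), which fell. MLANA (40.7%), which rose, and OCA2 (52.4%), which fell, did not follow this order, and TYR (43.3%) did not pass. MITF and DCT have the longest transcripts of the 10 (4814 and 5064 bases).

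With the correction for GC and length, 6 of the 10 genes passed and 34.6% of all genes did. MITF stayed lower (-0.15, adjusted p = 0.00994), as did TYRP1 (-0.16, adjusted p = 0.00314), at a smaller size. PMEL (0.25), MLANA (0.36) and SLC45A2 (0.24) stayed higher, and OCA2 stayed lower (-1.35, adjusted p = 0.0423). GPR143 (0.08, adjusted p = 0.245), DCT (-0.0078, adjusted p = 0.93) and SOX10 (-0.08, adjusted p = 0.369) no longer passed, and SOX10 changed sign. Ribosomal RNA took 5.93% to 11% of counts in the MP41 A366 libraries and 3.31% to 5.1% in those with DMSO, and its part in the result was not tested. Of the 4 retinal pigment epithelium markers, 3 were tested and all 3 rose (BEST1, RLBP1 and TTR), with a summed level of 36 to 36.2 CPM with A366 and 18.6 to 22 CPM with DMSO (part not tested). Of the other lists, COL1A1 and LUM fell (fibroblast sum 23.1 to 24 CPM against 28 to 31), VWF rose (endothelial sum 2.37 to 3.14 CPM against 0.369 to 0.584) and KRT18 fell (epithelial sum 0.0646 to 0.173 CPM against 0.282 to 1.12), and their part was not tested.

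**Figure D4:**
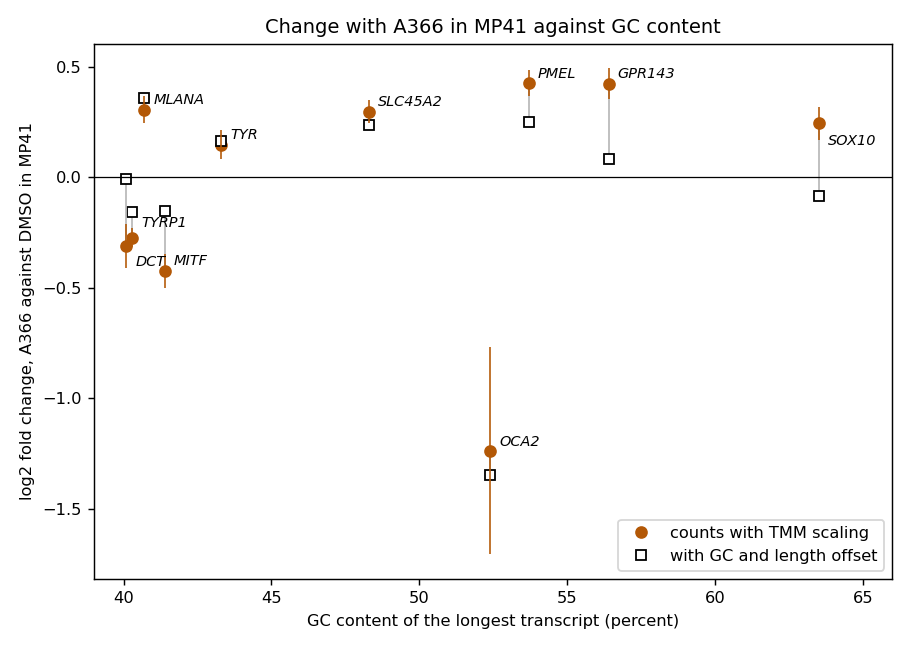
Log2 fold change with A366 against DMSO in MP41 for each gene, against the GC content of its longest transcript in percent. Orange points are the fit on counts with TMM scaling, with standard errors, and open squares the fit corrected for GC and length. SOX10, GPR143 and DCT move to between -0.08 and 0.08 when corrected, while MLANA, PMEL and SLC45A2 stay above 0.2.

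With the 4 libraries left out, 1 A366 library of MP41 remained, whose spread was taken from the other groups. The log2 values were then -0.45 for MITF, -0.29 for TYRP1 and -0.31 for DCT. They were 0.42 for PMEL, 0.40 for GPR143, 0.35 for MLANA and 0.30 for SLC45A2. SOX10 was at 0.22, TYR at 0.16 and OCA2 at -0.93. With the libraries as labelled, 4 genes passed, where 32.8% of all genes did, and 5 of the 10 changed sign, OCA2 to 7.44 among them.

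In Mel92.1, A366 changed none of the 10 genes past the threshold. By the edgeR test 0 passed. An unadjusted p under 0.05 was found for 3 (SOX10, TYR and OCA2), and for 628 of all 14528 genes. DESeq2 called 2 and limma voom 5. In this comparison 0.213% of all genes passed with edgeR, 1.18% with DESeq2 and 21.2% with limma voom. TYR had 312, 318 and 306 CPM with A366, above all 3 DMSO libraries (log2 0.24 ± 0.06, adjusted p = 0.239). OCA2 had 125, 128 and 120 CPM, below all DMSO libraries (-0.20 ± 0.06, adjusted p = 0.546), and SOX10 had 544, 573 and 565 CPM, also below (-0.13 ± 0.05, adjusted p = 1). These were the 3 genes without overlap, against 15.7% of all genes. The other 7 genes lay between -0.20 and 0.09 on the log2 scale. The median over the 10 was -0.10, and over all genes tested it was -0.00521. With the 4 libraries left out, the values were 0.23 for TYR, -0.20 for OCA2 and -0.18 for SOX10. As labelled TYR was at 2.24 and DCT at 6.53, with 0 of the 10 genes past the threshold and 0% of all genes.

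The inhibitors, at the same dose and time, were also set against each other within each line. Both comparisons with DMSO share their control libraries, which this one does not use. In MP41, 7 genes differed between A366 and UNC0642, where 43.1% of all genes did. DCT had the largest difference among the genes that passed, 273, 313 and 222 CPM with A366 against 492, 524 and 501 CPM with UNC0642 (log2 -0.93 ± 0.10, adjusted p = 9.67e-05). It held in all 9 fits that left out a library and with the correction for GC and length (-0.65). MITF (-0.46 ± 0.08) and TYRP1 (-0.28 ± 0.04) were lower with A366, and GPR143 (0.43 ± 0.07), PMEL (0.32 ± 0.06), SLC45A2 (0.30 ± 0.05) and MLANA (0.22 ± 0.06) were higher. The same correction left 35.2% of all genes past the threshold. With it MITF (-0.22), TYRP1 (-0.18), PMEL (0.15), SLC45A2 (0.23) and MLANA (0.27) still passed, and GPR143 did not (0.10, adjusted p = 0.15). The call on MLANA was lost without UNC0642 replicate 3 or A366 replicate 1 (adjusted p = 0.0531 and 0.0514). Without the 4 libraries DCT was at -0.93. As labelled 4 genes passed, where 31% of all genes did. SOX10 was at 0.18, with an approximate 95% interval of 0.04 to 0.33, and TYR at 0.08 (-0.04 to 0.21).

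In Mel92.1, 0 of the 10 genes passed between A366 and UNC0642 by edgeR, where 0.165% of all genes did. An unadjusted p under 0.05 was found for 5, and for 1047 of all 14528 genes. DESeq2 and limma voom called 5 each, with 1.47% of all genes by either. These 5 were all lower with A366, with PMEL at -0.37 ± 0.06 (adjusted p = 0.0621), MLANA at -0.32 ± 0.06 (0.124), OCA2 at -0.29 ± 0.06 (0.134), TYR at -0.24 ± 0.06 (0.217) and DCT at -2.04 ± 0.42 (0.134). PMEL had 8114, 7901 and 8541 CPM with A366, below each of its UNC0642 libraries. MITF was at -0.04, with an approximate 95% interval of -0.20 to 0.11, and TYRP1 at -0.01 (-0.12 to 0.10). With the correction for GC and length, 4 of the 10 passed, where 0.798% of all genes did. Scaling by library size alone moved the 10 genes by a median of 0.24 in this comparison. The log2 values were then -0.13 for PMEL, -0.09 for MLANA, -0.06 for OCA2, -0.0056 for TYR and -1.73 for DCT, none past the threshold. Without the 4 libraries PMEL was at -0.39, MLANA at -0.29, OCA2 at -0.29, TYR at -0.25 and DCT at -2.02. As labelled 0 of the 10 genes passed, where 0% of all genes did.

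Whether the lines responded differently was tested as an interaction over the 18 libraries. For UNC0642, 1 of the 10 genes differed (TYR), where 0.601% of all genes did. For A366, 6 differed (PMEL, GPR143, SOX10, MLANA, TYRP1 and OCA2), where 13.8% of all genes did. Without the 4 libraries, 1 A366 library of each line remained, and the values of these 6 genes are given below. As labelled 9 genes differed, where 49.4% of all genes did. The response of MITF to A366 was 0.31 ± 0.11 higher in Mel92.1 (adjusted p = 0.0759) and is not shown to differ.

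Of the other genes of the pathway, 2 of 63 passed with UNC0642 in Mel92.1, beside 0.688% of all genes. DESeq2 called 9, beside 2.64% of all genes. An unadjusted p under 0.05 was found for 15, and for 1442 of all 14528 genes. The 2 that passed with edgeR were among the 16 other MITF targets tested. TRPM1, a channel gene of melanocytes and host of miR-211, rose to 85.8 to 102 CPM from 62.0 to 67.2 CPM (0.52 ± 0.08, adjusted p = 0.0138). TBX2, a transcriptional repressor, fell to 107 to 113 CPM from 149 to 171 CPM (-0.55 ± 0.07, adjusted p = 0.00596). None of 15 lineage regulators passed (EDNRB at 0.39 ± 0.08, adjusted p = 0.0808, and TFE3 at -0.33 ± 0.09, adjusted p = 0.235), of 23 melanosome genes (RAB38 at 0.27 and RAB27A at 0.41, adjusted p = 0.192 and 0.265) or of 9 dedifferentiation markers (NES at -0.25 and AXL at 3.91, adjusted p = 0.179 and 0.262). In MP41, 6 of the 67 genes tested in these lists had an unadjusted p under 0.05, as did 1316 of all 14956 genes. DESeq2 called 2, beside 1.2% of all genes, and 0 passed with edgeR, beside 0.241%. The nearest was the neural factor POU3F2 (-0.76 ± 0.14, adjusted p = 0.0595), and those leading the other lists were TPCN2 (0.29), BCL2 (-0.42) and NES (-0.22).

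With A366 in MP41, 36 of 67 genes in the lists passed, beside 46.0% of all genes, in both directions. Changes in this comparison also went with transcript length and GC content across all genes. The counts and values given for it here carry no correction for this. Of 16 lineage regulators 2 rose and 6 fell, ZEB2 (-0.59 ± 0.11) and KIT (-0.50 ± 0.09) with the lowest p. Of 23 melanosome genes 7 rose and 9 fell, with MYO5A, the motor of melanosome transport, at -0.89 ± 0.12 and HPS1 at 0.56 ± 0.08. Of 17 other MITF targets 5 rose and 3 fell, led by APEX1 (0.38 ± 0.07) and MET (-0.58 ± 0.11). Of 11 dedifferentiation markers 4 fell (WNT5A, NES, TNC and EGFR) and 0 rose. In Mel92.1 0 of 63 genes of these lists passed with A366 by edgeR and by DESeq2, beside 0.213% and 1.18% of all genes. An unadjusted p under 0.05 was found for 6, and for 628 of all 14528 genes. Those with the lowest p were TFEB (0.63), EDNRB (0.19), BACE2 (-0.14), MLPH (-0.22), TBX2 (-0.21), ACP5 (0.38), TNC (2.76) and AXL (1.62). TRPM1 was lower with A366 than with UNC0642 in Mel92.1 (-0.68 ± 0.08, adjusted p = 0.00933).

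TYRP1 followed MITF most closely among the 9 other genes. Over the 18 libraries, with each line centred on its own mean, Pearson's r of log2 CPM with MITF was 0.975 for TYRP1, rank 6 of 15798 genes. The 5 genes ahead were GNA13, RRM1, HLTF, ZMYM2 and ETS1 (0.976 to 0.981). OCA2 (0.506) and DCT (0.363) followed at ranks 3595 and 4506. TYR (-0.292), MLANA (-0.595), SOX10 (-0.625), PMEL (-0.720), SLC45A2 (-0.801) and GPR143 (-0.866) had negative r. The libraries differ in depth and in ribosomal share, and the fall with A366 in MP41 is part of each value. Changes in that comparison also went with transcript GC and length across all genes. The r values carry no correction for this, and its part in them was not tested.

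In GENCODE 29 (GRCh38) the genes lie on separate chromosomes but for TYRP1 and MLANA, both on chromosome 9. MITF spans chr3:69739435-69968337 and SOX10 chr22:37970686-37987422. The enzymes lie at chr11:89177452-89295759 (TYR), chr9:12685439-12710290 (TYRP1) and chr13:94436808-94479682 (DCT), and the structural genes at chr12:55954105-55973317 (PMEL) and chr9:5890802-5910606 (MLANA). OCA2 spans chr15:27754875-28099358, SLC45A2 chr5:33944616-33984730 and GPR143 chrX:9725346-9786297. PMEL overlaps CDK2 on the opposite strand and the gene AC025162.1 on its own strand. SOX10 overlaps POLR2F, GPR143 overlaps TBL1X, MLANA overlaps KIAA2026 and TYRP1 overlaps LURAP1L-AS1 on opposite strands. So do MITF with RN7SL418P, TYR with CBX3P7, OCA2 with AC090696.1 and RPL5P32, and SLC45A2 with AC139783.2. DCT overlaps no gene. Whether the counting used the strand is not given in the sources used here, so counts of these pairs may not be separate. CDK2 stood at 572 to 714 CPM over all libraries.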

How the data were processed

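RNA-seq was carried out on 18 libraries. The authors deposited 1 table of RSEM expected counts per gene symbol, made with Bowtie2 2.1.0 and RSEM 1.2.15 on hg38 according to the submitters' processing notes; the annotation is not given in the sources used here, and the methods of the study describe another build and pipeline. Estimated counts were rounded to whole numbers, and no per-sample column was left unused. Genes were filtered with filterByExpr and fitted with edgeR 4.0.16 (TMM, quasi-likelihood F-test, Benjamini-Hochberg threshold 0.05), within each line over its 9 libraries and, for comparisons of the lines, over all 18. Alternatives used DESeq2 1.42.0, limma 3.58.1 voom with sample weights, other scalings and filters, a replicate block, left-out libraries and, chosen after seeing the data, a correction for GC and length (an offset fitted by loess). The scripts were tested on simulated counts. Totals of 23601156 to 62941462 counts per library set the precision, which for genes with few counts is low. Positions, overlaps, lengths and GC content come from GENCODE 29 on GRCh38, where 23899 symbols matched by name and 686 by an older name. Promoter windows are from RefSeq. The 10 genes and the lists of other genes were chosen with earlier results of these data known. All 10 genes are named, with, from each other list, the 2 with the lowest p against DMSO and any that passed where 5 or fewer did.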

Additional observations from a re-analysis of the deposited data

Results flagged for a closer look

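The response of 7 gene and inhibitor pairs differed between the lines by the interaction test of edgeR over the 18 libraries, with Benjamini-Hochberg adjustment. Positive values are those where Mel92.1 had the higher log2 change. For UNC0642, TYR had a difference of 0.42 (adjusted p = 0.0356), from changes of 0.49 in Mel92.1 and 0.06 in MP41. It stayed past the threshold in 9 of 28 other settings and in 5 of the 18 fits that left out 1 library, between 0.35 and 0.47.

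For A366, PMEL differed by -0.57 (adjusted p = 0.00128), GPR143 by -0.61 (0.00419), SOX10 by -0.40 (0.0139), MLANA by -0.31 (0.026), OCA2 by 1.00 (0.0195) and TYRP1 by 0.24 (0.0467). PMEL and GPR143 held in all 18 fits that left out a library. SOX10 was lost without Mel92.1 DMSO replicate 3 or MP41 A366 replicate 3 (adjusted p = 0.0539 and 0.0543), and OCA2 in 3 fits, without MP41 DMSO replicate 2 or 3 or MP41 A366 replicate 2 (adjusted p from 0.0669 to 0.0835). MLANA held in 10 and TYRP1 in 7 of the 18. With the correction for GC and length, PMEL (-0.35), MLANA (-0.38), OCA2 (1.14) and GPR143 (-0.21) passed, where 6.29% of all genes did, and SOX10 and TYRP1 did not. Without the 4 libraries whose labels differ, only A366 replicate 1 of each line remained. The values were then -0.59 for PMEL, -0.63 for GPR143, -0.43 for SOX10, -0.33 for MLANA, 0.70 for OCA2 and 0.28 for TYRP1.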

How the results depend on the processing

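As labelled, 0 of the 10 genes passed for UNC0642 against DMSO in either line (0% of all genes in each). The line difference in response to UNC0642 also had 0 (0%). In MP41, 4 passed for A366 (32.8% of all genes) and 4 for A366 against UNC0642 (31%). Of the values with an unadjusted p under 0.05, those that turned sign as labelled were, on the log2 scale, 0.13 for SOX10 with A366 in Mel92.1; 1.75 for TYR, 4.70 for DCT and 0.58 for MLANA for A366 against UNC0642 in Mel92.1; -0.95 for TYR, 0.52 for TYRP1, -0.33 for MLANA, 7.44 for OCA2 and -0.67 for SLC45A2 with A366 in MP41; -0.015 for SOX10, 0.515 for TYRP1, -0.42 for MLANA and -0.671 for SLC45A2 for A366 against UNC0642 in MP41; and 0.083 for SOX10, -1.10 for TYRP1, 1.25 for MLANA, -9.19 for OCA2 and 2.31 for SLC45A2 in the line difference in response to A366.

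Without the 4 libraries 1 gene passed for UNC0642 in Mel92.1 (0.263% of all genes) and 0 for its line difference (0.335%). In Mel92.1 DESeq2 called 4 genes with UNC0642 (2.64% of all genes), 2 with A366 (1.18%) and 5 between them (1.47%). Limma voom called 5 in each, with 2.84%, 21.2% and 1.47% of all genes. For the line difference in response to UNC0642 it called 3 (1.54%). Scaling by library size alone gave 0 for UNC0642 in Mel92.1 (0.124% of all genes), with SLC45A2 at -0.035. It gave 0 for the line differences in response to UNC0642 (0.158%) and A366 (3.05%). Without a filter on low counts there were 1 for UNC0642 in Mel92.1 (0.485% of all genes) and 0 for its line difference (0.395%). With only the 6 libraries compared there was 1 for UNC0642 in Mel92.1 (0.297%). The correction for GC and length was added once the data had been seen. With it there were 4 for A366 against UNC0642 in Mel92.1 (0.798% of all genes) and 0 for the UNC0642 line difference (1.06%). SOX10 was then at -0.084 and -0.12 for A366 against DMSO and against UNC0642 in MP41. In the line difference in response to A366 it was at 0.024. The line difference of SOX10 with DMSO also turned sign, to -0.022 with DESeq2 and with RLE scaling, -0.18 with library size alone, -0.079 with the replicate block and -0.68 with the correction. It ranged from -0.025 to 0.06 with 1 library left out.

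With the replicate number as a block, the numbers were 1 with UNC0642 in Mel92.1 (0.317% of all genes) and 0 in MP41 (0.0602%). For the line differences in response to UNC0642 and A366 they were 0 (0.373%) and 3 (7.44%). The labels do not say whether the numbers pair the libraries. Same-numbered libraries deviated from their group means with r from -0.14 to 0.151 in Mel92.1 and from -0.058 to 0.068 in MP41. Those with different numbers had r from -0.201 to 0.261 and from -0.056 to 0.066. Deviations from means of 3 libraries cannot decide whether cultures were set up together.

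With 1 library left out, the numbers ranged from 1 to 2 for UNC0642 in Mel92.1, 0 to 1 in MP41, 6 to 10 for A366 in MP41, 6 to 8 for A366 against UNC0642 there, and 0 to 1 and 3 to 8 for the line differences in response to UNC0642 and A366. They were 0 in both A366 comparisons of Mel92.1 and 9 between the lines. Shares of all genes are given above for the fits with every library. The cause of the changes in number was not tested. SOX10 between the lines with DMSO, which also had an unadjusted p above 0.05, is given above. Of the other 36 values with an unadjusted p of 0.05 or more, 23 changed sign under at least 1 setting. OCA2 in MP41 rests on 6 to 25 counts a library, and DCT in Mel92.1 on 51 to 314.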
